A study of Homo sapiens with 34 samples.

Results

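Undifferentiated human ESCs of the H1 line with a knockdown of NKX2-5 were compared with WT H1 ESCs, both taken at day 0 before cardiac differentiation was started. The comparison used the 4 day 0 libraries whose labels give these groups, 2 of NKX2-5 shRNA cells and 2 of WT cells, among the 34 libraries of the series. The study knocked down NKX2-5, ZEB2 or ZNF503 in ESCs and sequenced total RNA at day 0 and on later days of differentiation toward cardiomyocytes. H1 is an established embryonic stem cell line. NKX2-5 shRNA cells were H1 cells infected with a GIPZ lentiviral vector, the most effective of 5 that were tried by real-time PCR, and selected with puromycin. WT cells were H1 cells that carried either a lentiviral shRNA against GFP or an empty vector, and which WT library carried which is not stated. All groups thus carried a lentiviral construct, and all were grown as ESCs in E8 medium on matrigel. Only 1 shRNA line against NKX2-5 was sequenced, and whether it was 1 clone or a pool is not stated. The 2 ZEB2 shRNA and 2 ZNF503 shRNA libraries of day 0 were used to show where NKX2-5 shRNA cells differed from other shRNA lines. The day 2 and day 6 libraries of NKX2-5 shRNA and WT cells, 4 a day, were used to see which day 0 differences were met again.

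NKX2-5 is a homeodomain transcription factor that acts in cardiac precursors and in the heart, and undifferentiated ESCs contain little of its RNA. Human ESCs held in E8 medium represent a primed pluripotent state, kept by POU5F1, SOX2 and NANOG together with FGF and activin signals. Germline genes are kept silent in these cells largely by methylation of their promoters, and lineage regulators such as EOMES are held at low levels until differentiation begins.

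At day 0 the targeted gene was near the limit of detection in every library. NKX2-5 (chr5:172659112-172662314, GRCh37) had 5 and 8 counts in NKX2-5 shRNA cells and 8 and 16 counts in WT cells (replicate 1 before replicate 2, here and for every pair of values that follows). This is 0.122 and 0.137 CPM (counts scaled to library size, with TMM factors) against 0.206 and 0.407 CPM. The log2 fold change was -1.22 (SE 0.79) with an adjusted p of 0.323 by the quasi-likelihood test of edgeR, so a reduction of NKX2-5 RNA was not detectable at this depth. At day 6, where WT cells had 1942 and 2097 counts of NKX2-5, the shRNA cells had 27 and 38, and the log2 fold change was -6.30. ZEB2 and ZNF503, which this shRNA does not target, were also lower at day 6 (log2 fold changes -2.22 and -3.55), so the day 6 value is not a check of the shRNA alone, and at day 0 the counts were too low to check the label. NKX2-5 was also low at day 0 in the lines that do not target it, at 0.0427 and 0.0286 CPM in ZEB2 shRNA cells and 0.0873 and 0 CPM in ZNF503 shRNA cells (log2 fold changes against WT -3.00, adjusted p 0.0827, and -3.08, adjusted p 0.0695). By the same test NKX2-5 shRNA cells did not differ from either line (log2 differences 1.78, adjusted p 0.182, and 1.87, adjusted p 0.213). The study reports reduced RNA of each target by real-time PCR in cells put through differentiation. ZEB2 (2 and 10 counts against 0 and 9) and ZNF503 (2 and 6 against 4 and 4) were also near the limit at day 0.

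The 8 day 0 libraries held between 38772320 and 90816127 counts, with 41756140 and 61146100 in NKX2-5 shRNA cells and 38772320 and 39310303 in WT cells. At this depth 3 counts, taken here as the limit of detection, equal 0.0515 to 0.0774 CPM in these 4 libraries. The 2 NKX2-5 shRNA libraries were further apart than the 2 WT libraries: the SD of the log2 difference between replicates was 0.332 against 0.211, and 181 against 47 of 14103 genes differed by more than 2-fold between replicates. The study calls its replicates biological, and neither the labels nor the methods say whether they were separate cultures or infections, so the p-values measure the spread between these libraries only. Defining markers of ESCs were at high levels in both groups, with a sum over 10 markers of 6031 to 6878 CPM in NKX2-5 shRNA cells and 6882 to 7033 CPM in WT cells. POU5F1 had 787 and 913 CPM against 781 and 796, and NANOG had 189 and 187 CPM against 204 and 189.5. None of the 10 markers was called.

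A gene was called where it differed at least 2-fold at 10% FDR, and 4.03% of the 16891 genes tested were called, 2.63% higher and 1.4% lower in NKX2-5 shRNA cells. In each of the 681 called genes both NKX2-5 shRNA libraries lay on the same side of both WT libraries, as they did in 58.9% of all tested genes. The median log2 fold change over all 16891 genes was -0.00259. Counts of called list members below are to be read beside these shares. At 5% FDR and any fold 8.23% of all tested genes were higher and 7.64% lower. Changes beyond 4-fold were found for 139 genes that rose and 61 that fell. Leaving out any 1 NKX2-5 shRNA or WT library changed both the count of calls and which genes were called. In each case some of the 681 genes lost their call.

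**Figure D1:**
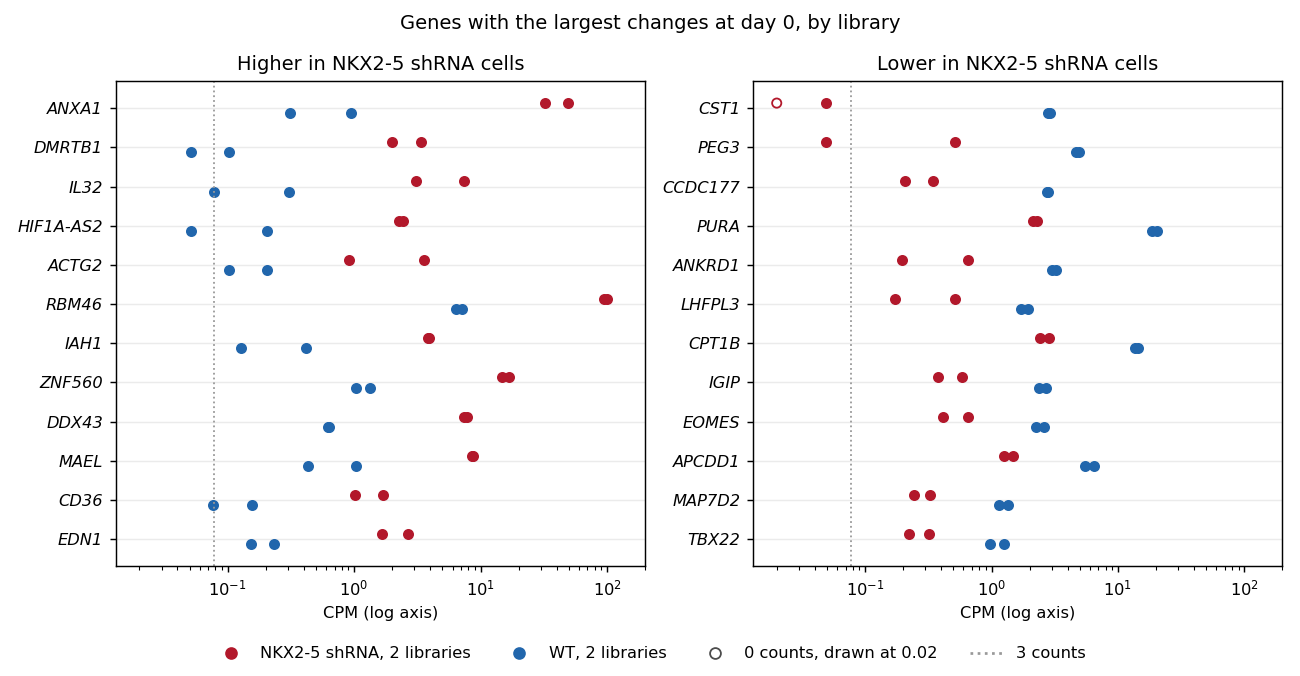
The 12 genes with the largest rise and the 12 with the largest fall at day 0, among called genes with at least 1 CPM in the higher group, plotted as CPM on a log axis with 1 point per library (2 NKX2-5 shRNA and 2 WT libraries) and a dotted line at 3 counts. In each of the 24 genes the points of the 2 groups do not overlap, and an open circle stands for a library with 0 counts.

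Genes of the germline that are normally silent in somatic cells stood among the largest rises. Of 15 tested genes in a list of germline genes silenced by DNA methylation, 5 rose (RBM46, DDX43, MAEL, TEX14 and CTCFL) and none fell, where 2.63% of all tested genes rose. All 15 had a fold change above 0. The median log2 fold change of the list was 1.06. The list held 34 genes, and the filter that left 15 can be passed through 1 group alone, which favours genes high in that group. The summed level of the tested genes was 212 and 235 CPM in NKX2-5 shRNA cells and 69.8 and 72.6 CPM in WT cells, and much of the difference came from RBM46. RBM46, an RNA-binding protein needed for meiosis that lies at chr4:155702365-155749965 (GRCh37), had 95.4 and 101 CPM in NKX2-5 shRNA cells and 6.37 and 7.11 CPM in WT cells. Both shRNA libraries were far above both WT libraries, with little spread within a group (log2 fold change 3.86, SE 0.15, adjusted p 8.59e-08). RBM46 was also above ZEB2 shRNA cells (12.4 and 11.6 CPM) and ZNF503 shRNA cells (3.43 and 2.48 CPM), by 3.03 and 5.07 on the log2 scale. DDX43, an RNA helicase expressed mainly in testis, had 7.35 and 7.82 CPM against 0.619 and 0.635 in WT cells (log2 fold change 3.59, SE 0.26, adjusted p 1.45e-05). The 4 libraries of the other shRNA lines held DDX43 at 0.2 to 0.328 CPM, below WT. MAEL, a component of the piRNA pathway that restrains transposons, had 8.67 and 8.63 CPM against 1.03 and 0.432 (log2 fold change 3.56, SE 0.38, adjusted p 0.000237). MAEL was at 0.443 CPM or lower in the ZEB2 shRNA and ZNF503 shRNA libraries. CTCFL, the germline paralogue of CTCF, had 21.04 and 26.4 CPM against 7.92 and 11.6, a smaller change (log2 fold change 1.28, SE 0.23). DAZL had a log2 fold change of 0.95 and an adjusted p of 0.0273, below the 2-fold threshold.

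Some called genes outside this list are also known from germ cells or the early embryo, and those given here were picked after their values were seen. DMRTB1, a transcription factor of spermatogonia, had 2.01 and 3.36 CPM against 0.103 and 0.0508 in WT cells, where it was at 3 counts or near it. DPPA2, a chromatin factor of pluripotent cells and the germline, had 47.4 and 46.1 CPM against 22.5 and 21.9, and 15.01 to 18.3 CPM in the other shRNA lines (log2 fold change against WT 1.07, SE 0.12, adjusted p 0.000263). With offsets for transcript length and GC content its log2 fold change was 0.91, below 2-fold. DPPA5 (5.88 and 7.08 CPM against 2.30 and 1.47) and NLRP7, a gene of the oocyte and early embryo (6.96 and 9.80 against 1.37 and 1.14), were the 2 called members among 14 tested genes of the naive state, whose median was 0.09. The zinc finger genes ZNF560 (16.8 and 14.9 CPM against 1.03 and 1.35, log2 fold change 3.73), ZNF492 (26.4 and 23.3 against 4.36 and 4.90, log2 fold change 2.42) and ZNF662 (11.5 and 9.33 against 1.52 and 1.42, log2 fold change 2.82) rose. Among 232 tested zinc finger genes of chromosome 19 5 rose, 2.16%, below the 2.63% of all tested genes, with a median of -0.01. Among 223 on other chromosomes 1 rose and 4 fell, 2.24% called beside 4.03% of all tested genes, with a median of -0.11. At 5% FDR 28 of the 223 were lower and 8 higher, where 7.64% of all tested genes were lower and 8.23% higher.

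Several enzymes of DNA methylation had lower values at under 2-fold. DNMT3B, a de novo DNA methyltransferase that is abundant in ESCs, had 662 and 879 CPM in NKX2-5 shRNA cells and 1249 and 1198 CPM in WT cells (log2 fold change -0.67, SE 0.12, adjusted p 0.0038). DNMT3A had 85.9 and 90.6 CPM against 135 and 138 (log2 fold change -0.63, SE 0.09), and DNMT1, the maintenance methyltransferase, had 88.6 and 117 CPM against 155 and 152 (log2 fold change -0.58, SE 0.12). UHRF1, which guides DNMT1 to replicating DNA, had 22.7 and 24.4 CPM against 37.8 and 33.3. All 4 genes passed 5% FDR. Of 12 tested genes of the list 5 were lower and 3 higher at 5% FDR, where 7.64% of all tested genes were lower and 8.23% higher, and the median was -0.33. The called members were ZFP57, a zinc finger protein that protects imprinted methylation, which rose (2.87 and 2.78 CPM against 0.284 and 0.559, log2 fold change 2.73), and TET2, a methylcytosine dioxygenase, which fell (2.72 and 2.45 against 5.70 and 5.06). The call of TET2 stood at the threshold, with a log2 fold change of -1.06, which was -0.98 without NKX2-5 shRNA replicate 2 and -0.97 without WT replicate 1. The median of the list was 0.08 against ZNF503 shRNA cells and -0.50 against ZEB2 shRNA cells. DNMT3B was at 1002 and 921 CPM in ZNF503 shRNA cells and 1419 and 1306 CPM in ZEB2 shRNA cells. DNA methylation was not measured, and whether the lower values of these enzymes have a part in the rise of germline genes was not tested.

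Several genes of the hypoxia response and of glycolysis rose. Among 28 tested members of the list 7 rose (ANKRD37, NDRG1, PGK1, ADM, SLC16A3, BNIP3 and PFKFB4) and none fell, 20 were higher and none lower at 5% FDR (where 8.23% of all genes were higher), 1 had a fold change below 0, and the median log2 fold change was 0.66. The summed level was 9870 and 12693 CPM in NKX2-5 shRNA cells against 7852 and 7926 CPM in WT cells. The count of called members was 3 without NKX2-5 shRNA replicate 2, 4 without WT replicate 1, 5 without WT replicate 2 and 10 without NKX2-5 shRNA replicate 1. Several of these genes are textbook targets of the hypoxia-inducible factors, which bind a short core sequence in promoters and enhancers. To show what that core looks like at genes of this list, the 250 bases before the start of transcription (RefSeq, table of GRCh38.p14, placed on GRCh37 by exact match) are given 5′ to 3′ on the strand of the gene for 4 called members, with each ACGTG or GCGTG, on either strand, in capitals.
ADM (chr11:10326370-10326619, plus strand): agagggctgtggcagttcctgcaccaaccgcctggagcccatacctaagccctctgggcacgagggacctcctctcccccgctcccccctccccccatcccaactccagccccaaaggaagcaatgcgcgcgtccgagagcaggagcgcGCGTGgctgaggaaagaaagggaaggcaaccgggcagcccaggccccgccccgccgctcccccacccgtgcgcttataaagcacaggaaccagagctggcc
ANKRD37 (chr4:186317745-186317994, plus strand): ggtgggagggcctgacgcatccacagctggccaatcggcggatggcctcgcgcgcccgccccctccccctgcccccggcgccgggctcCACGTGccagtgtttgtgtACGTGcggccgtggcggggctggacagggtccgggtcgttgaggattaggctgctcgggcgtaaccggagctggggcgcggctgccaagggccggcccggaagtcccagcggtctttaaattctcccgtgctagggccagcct
BNIP3 (chr10:133795428-133795677, minus strand): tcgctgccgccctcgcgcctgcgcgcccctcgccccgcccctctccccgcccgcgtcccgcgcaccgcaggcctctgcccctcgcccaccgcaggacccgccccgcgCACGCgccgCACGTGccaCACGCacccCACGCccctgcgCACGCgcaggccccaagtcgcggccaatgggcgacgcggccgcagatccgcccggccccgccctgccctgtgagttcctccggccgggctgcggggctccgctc
PGK1 (chrX:77359495-77359744, plus strand): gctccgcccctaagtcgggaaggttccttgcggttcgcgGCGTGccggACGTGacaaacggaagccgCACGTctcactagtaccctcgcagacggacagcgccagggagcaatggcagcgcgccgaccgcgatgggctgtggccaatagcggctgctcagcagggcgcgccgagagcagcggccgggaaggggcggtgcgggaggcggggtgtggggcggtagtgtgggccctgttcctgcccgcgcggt

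The core was in 1 stretch of the ADM promoter, 2 of ANKRD37, 5 of BNIP3 and 3 of PGK1. Of the called members 6 had a promoter in the RefSeq table, and 8 of their 10 promoters held the core. It was in 64.4% of the 45 promoters of 25 tested members, in 53.1% of the promoters of all tested genes, and in 44.9% of the promoters of genes that rose. A match of 5 letters is common and says nothing of binding.

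PGK1, a glycolytic enzyme and one of the called genes with the highest level, had 1203 and 1441 CPM in NKX2-5 shRNA cells and 576 and 607 CPM in WT cells. It was at 545 to 818 CPM in the other shRNA lines, so its values in NKX2-5 shRNA cells lay above those of all 6 other day 0 libraries (log2 fold change against WT 1.16, SE 0.13, adjusted p 0.000299). BNIP3, a mitophagy receptor, had 229.6 and 232 CPM against 103 and 116 (log2 fold change 1.08, SE 0.16, adjusted p 0.00147), and without WT replicate 1 its log2 fold change was 1.00, just under the threshold. PFKFB4, which regulates glycolytic flux, had 40.1 and 47.9 CPM against 20.6 and 21.6, and SLC16A3, a lactate exporter, had 25.2 and 42.7 against 14.5 and 17.0. ANKRD37 had 4.21 and 11.6 CPM against 0.954 and 1.42, a large rise with a wide spread between its shRNA libraries (log2 fold change 2.75, SE 0.47). ADM, the vasoactive peptide adrenomedullin, had 37.5 and 67.8 CPM against 25.5 and 22.1. Its log2 fold change of 1.15 was 0.66 without NKX2-5 shRNA replicate 2, and that of NDRG1 was 0.92. ADM was also high in ZEB2 shRNA cells (63.4 and 61.5 CPM, difference -0.24, adjusted p 0.386). LDHA was higher at under 2-fold, with 688 and 719 CPM against 376 and 426 (log2 fold change 0.81, adjusted p 0.00152). VEGFA, a classical target of hypoxia, was not called (log2 fold change 0.32, adjusted p 0.152), nor was CA9 (1.36, adjusted p 0.223). Among other called genes of high level, IGFBP2, a secreted binder of insulin-like growth factors, had 318 and 432 CPM against 174 and 178 (log2 fold change 1.09, and 0.85 without NKX2-5 shRNA replicate 2), and SUCLA2, a subunit of succinyl-CoA ligase, had 220.5 and 251 CPM against 114 and 119.6 (log2 fold change 1.01, and 0.92 and 0.98 without NKX2-5 shRNA replicate 2 and WT replicate 1). HIF1A itself had 476 and 454 CPM against 492 and 470. HIF1A-AS2, listed as antisense to HIF1A, had 2.42 and 2.26 CPM against 0.206 and 0.0508 (log2 fold change 4.17, SE 0.60). Whether counting used the strand is not stated, so some of these reads may come from HIF1A.

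Metallothioneins, small cysteine-rich proteins that bind zinc and copper, rose together. Of 8 tested members 5 rose (MT1M, MT1A, MT1G, MT1E and MT1H), all 8 were higher at 5% FDR, and the median log2 fold change was 1.12. MT1G had 71.5 and 89.5 CPM against 31.6 and 38.0 (log2 fold change 1.21, SE 0.13, adjusted p 0.000246). MT1H had 30.3 and 36.2 CPM against 14.6 and 16.3 (log2 fold change 1.11, SE 0.17). ZEB2 shRNA cells lay close to WT for MT1G (32.3 and 30.3 CPM), and ZNF503 shRNA cells lay below it (8.06 and 8.37 CPM). MT1F, MT1X and MT2A had log2 fold changes of 0.79, 0.92 and 0.84. Members of the MT1 family are near-identical, so how reads were divided among them is uncertain, and their transcripts are short. Transcript length moved with the fold change over all genes: the median was 0.27 for transcripts of 500 to 1000 bases and -0.11 above 8000 bases. With offsets for length and GC content MT1E had a log2 fold change of 0.94 (0.95 without NKX2-5 shRNA replicate 2) and 3 metallothioneins were still called. Without NKX2-5 shRNA replicate 2 the count was also 3, and MT1A was not called without WT replicate 1 (adjusted p 0.152). The count was 4, 5 and 7 without WT replicate 1, WT replicate 2 and NKX2-5 shRNA replicate 1. The zinc sensor MTF1 acts on metal response elements, whose core is TGCACNC or TGCGCNC. MT1H was the only called member with a promoter in the RefSeq table, and its 250 bases before the start of transcription are shown from the same table with each core, on either strand, in capitals.
MT1H (chr16:56703476-56703725, plus strand): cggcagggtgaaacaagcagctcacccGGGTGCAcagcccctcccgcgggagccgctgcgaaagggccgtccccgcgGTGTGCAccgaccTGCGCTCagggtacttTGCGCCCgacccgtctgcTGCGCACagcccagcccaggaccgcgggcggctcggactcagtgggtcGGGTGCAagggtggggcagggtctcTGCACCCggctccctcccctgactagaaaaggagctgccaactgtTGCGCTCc

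The MT1H promoter held 8 such stretches. The core was in 31% of the promoters of all tested genes. For comparison, AAGTG, the core that NKX2-5 binds, was in 34% of the promoters of tested genes, 35.8% of those of genes that rose and 28.9% of those of genes that fell.

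**Figure D2:**
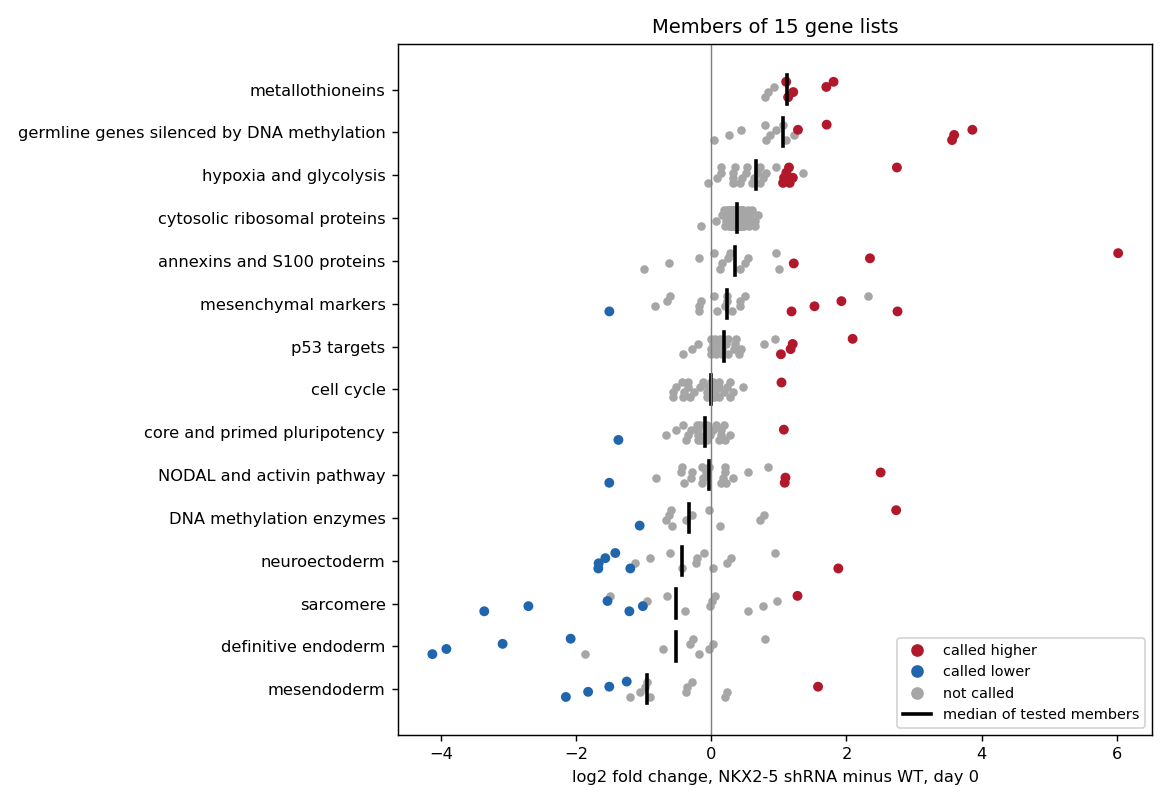
Log2 fold change of NKX2-5 shRNA minus WT cells at day 0 for each tested member of 15 gene lists, with 1 point per gene (red called higher, blue called lower, grey not called) and a black bar at the median of the list. Metallothioneins (median 1.12), germline genes (1.06) and the hypoxia and glycolysis list (0.66) lie to the right of 0, and mesendoderm genes (-0.95) lie to the left.

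Some annexins and mesenchymal markers rose in NKX2-5 shRNA cells, and some of them had values as high in ZEB2 shRNA cells. ANXA1, annexin A1, had 32.2 and 49.2 CPM in NKX2-5 shRNA cells, 0.309 and 0.940 CPM in WT cells, 50.8 and 63.5 CPM in ZEB2 shRNA cells and 0.153 and 0.0528 CPM in ZNF503 shRNA cells. The difference between NKX2-5 shRNA and ZEB2 shRNA cells was -0.49 on the log2 scale (adjusted p 0.129). ANXA3 had 101 and 114 CPM against 21.9 and 20.3 in WT cells (log2 fold change 2.35, SE 0.18, adjusted p 1.98e-05), and ANXA2 had 149.7 and 216 CPM against 77.6 and 79.6 (1.22, SE 0.15). Without NKX2-5 shRNA replicate 2 the log2 fold change of ANXA2 was 0.93. These were the 3 called members among 16 tested annexins and S100 proteins, whose median was 0.35, and 6 members were called without NKX2-5 shRNA replicate 1. VIM, the intermediate filament vimentin, had 142 and 260.0 CPM against 57.3 and 48.6. TAGLN, the actin-binding protein transgelin, had 107 and 241 CPM against 27.9 and 23.6 in WT cells and 224 and 243 CPM in ZEB2 shRNA cells. In both genes NKX2-5 shRNA replicate 2 was the higher, and the groups did not overlap. Among 21 tested mesenchymal markers VIM, TAGLN, CNN1 and MME rose and ZEB1 fell, with a median of 0.23, while none of 24 epithelial markers was called. The fall of ZEB1 (0.0980 and 0.137 CPM against 0.309 and 0.381) had an adjusted p of 0.0928 and was not called without any 1 of the 4 libraries (log2 fold change -1.32 to -1.79). IL32, a cytokine gene, followed the same pattern over lines, with 3.09 and 7.34 CPM against 0.0774 and 0.305 in WT cells and 4.73 and 3.55 CPM in ZEB2 shRNA cells. EDN1, the peptide endothelin 1 (1.67 and 2.68 CPM against 0.232 and 0.152), and CD36, a fatty acid scavenger receptor (1.69 and 1.01 against 0.155 and 0.0762), also rose against WT. INHBA, the activin A subunit, had 1.52 and 4.10 CPM against 0.671 and 0.330. Of 40 tested collagen genes 3 rose and 1 fell (COL9A1, log2 fold change -1.60), with a median of -0.05, and COL12A1 had 2.45 and 5.51 CPM against 0.645 and 0.559. The summed level of 6 fibroblast markers was 44.2 to 73.4 CPM against 42.3 to 48.6 CPM in WT cells, none of them was called, and their part in these results was not tested.

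Some genes that mark the first lineages fell, at low levels. Of 15 tested mesendoderm genes 4 fell (EOMES, MIXL1, CER1 and FGF8) and 1 rose (TBX6), with a median of -0.95, where 1.4% of all tested genes fell. Without NKX2-5 shRNA replicate 2 or WT replicate 2 the list had 3 called members. EOMES, a T-box factor of the primitive streak, had 0.416 and 0.652 CPM in NKX2-5 shRNA cells and 2.24 and 2.62 CPM in WT cells (log2 fold change -2.15, SE 0.29, adjusted p 0.000894). CER1, a secreted inhibitor of NODAL and BMP, had 1.89 and 0.995 CPM against 3.30 and 4.73 (log2 fold change -1.51, SE 0.29). Both genes were above WT in ZEB2 shRNA cells (EOMES 5.59 and 4.57 CPM, CER1 11.3 and 10.2 CPM), so NKX2-5 shRNA and ZEB2 shRNA cells lay on opposite sides of WT. ZNF503 shRNA cells lay below WT too (EOMES 0.742 and 0.739 CPM, CER1 0.197 and 0.185 CPM), so low values were not particular to NKX2-5 shRNA cells. MIXL1 had a log2 fold change of -1.82, which was -1.23 (adjusted p 0.104) without NKX2-5 shRNA replicate 2 and -1.66 (adjusted p 0.119) without WT replicate 2. FGF8 had a log2 fold change of -1.25, which was -0.89 (adjusted p 0.0879) without NKX2-5 shRNA replicate 2. TBX6 had 1.37 and 1.61 CPM against 0.593 and 0.407, and without WT replicate 2 its log2 fold change of 1.58 was 1.33 (adjusted p 0.139). Of 12 tested endoderm genes 4 fell (SOX17, FOXA1, GATA6 and FOXA2) and none rose, with a median of -0.52. GATA6 had 0.0245 and 0.0858 CPM against 0.438 and 0.610. SOX17 had 2 counts over both NKX2-5 shRNA libraries against 30 over both WT libraries, a ratio of 19 with an exact 95% counting interval from 4.83 to 164, and FOXA1 had 2 against 26, a ratio of 16.5 with an interval from 4.13 to 143. SOX17 was not called without WT replicate 1 (adjusted p 0.138), and FOXA2 was not called without WT replicate 1 (adjusted p 0.382) or NKX2-5 shRNA replicate 2 (adjusted p 0.223), so that 2 endoderm genes were called without WT replicate 1. The sum of 7 mesendoderm markers was 3.74 to 5.27 CPM in NKX2-5 shRNA cells, 10.99 to 12.5 CPM in WT cells, 23.2 to 27.7 CPM in ZEB2 shRNA cells and 4.46 to 5.18 CPM in ZNF503 shRNA cells. For 5 endoderm markers the sums were, in the same order, 0.549 to 0.857, 2.06 to 2.66, 5.56 to 6.49 and 0.175 to 0.290 CPM. Against ZNF503 shRNA cells the medians of the mesendoderm and endoderm lists were 0.15 and 0.115. Of 8 tested trophoblast and amnion genes 1 rose (GABRP) and none fell, with a median of -0.22. In bulk RNA, fewer cells of a type and less RNA per cell cannot be told apart.

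Neuroectoderm genes moved in both directions. Of 17 tested genes 5 fell (ZIC1, SIX3, MAP2, NCAM1 and HESX1) and PAX6 rose, with a median of -0.43, where 1.4% of all tested genes fell. ZIC1, a zinc finger factor of the neural plate, had 27.6 and 29.4 CPM against 93.6 and 88.0 in WT cells and 87.3 to 136 CPM in the other shRNA lines, so the 2 NKX2-5 shRNA libraries were the lowest of the 8 (log2 fold change against WT -1.67, SE 0.10, adjusted p 2.6e-06). PAX6, an eye and forebrain regulator, had 16.2 and 15.9 CPM against 4.80 and 3.94 (log2 fold change 1.88), and it was at 5.03 and 8.88 CPM in ZEB2 shRNA cells and 0.175 and 0.158 CPM in ZNF503 shRNA cells. OTX2, a factor of the primed state and of the anterior neural plate, had 7.64 and 9.83 CPM against 21.8 and 23.6 (log2 fold change -1.37). It was, with DPPA2, 1 of 2 called members among 27 tested genes of core and primed pluripotency, whose median was -0.10. The sum of 6 neuroectoderm markers overlapped between the groups, at 225 to 279.6 CPM against 258 to 285 CPM.

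**Figure D3:**
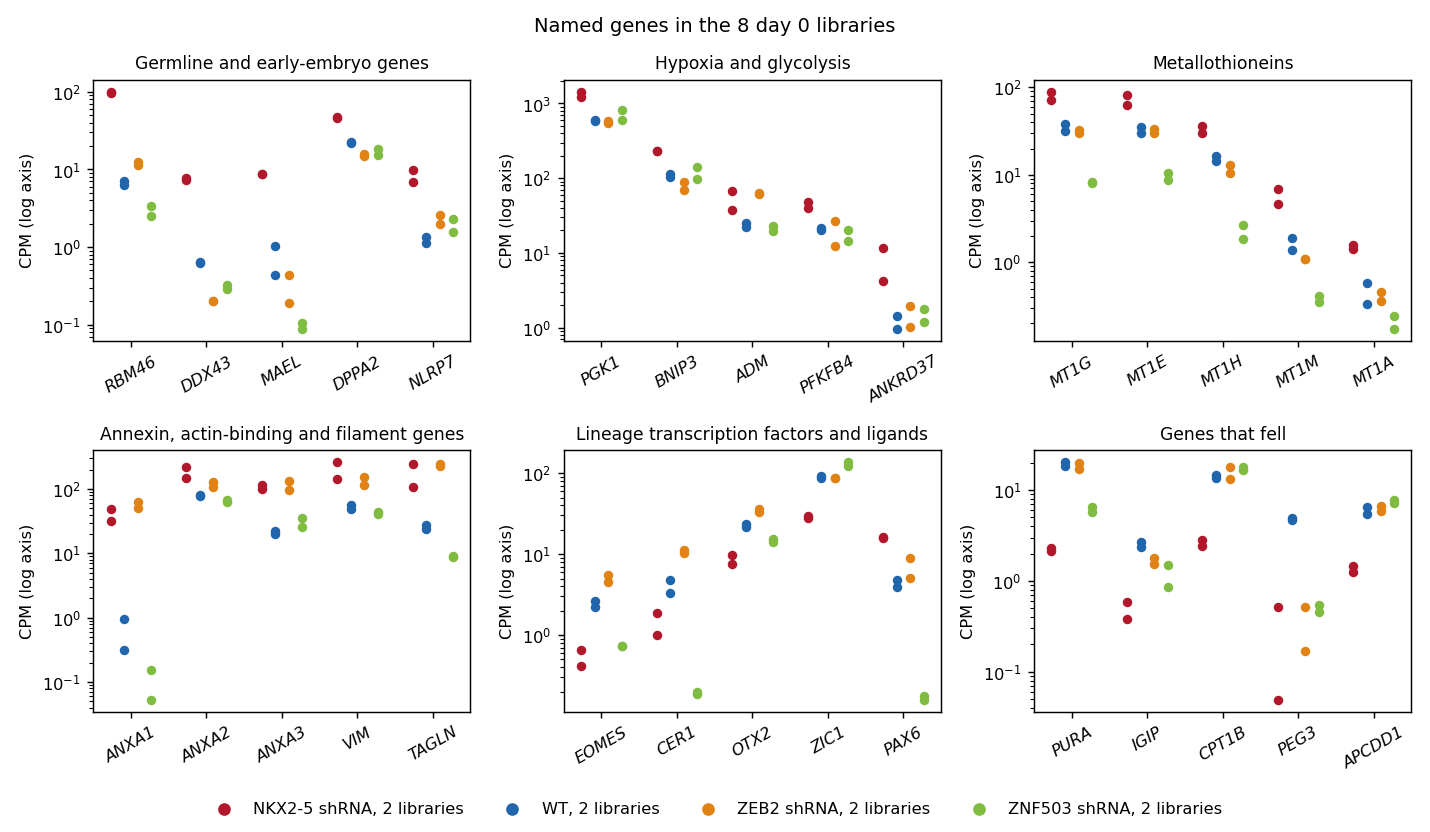
CPM on a log axis for 30 named genes in the 8 day 0 libraries, with 1 point per library and 2 libraries each of NKX2-5 shRNA (red), WT (blue), ZEB2 shRNA (orange) and ZNF503 shRNA cells (green). RBM46, DDX43 and MAEL are high in NKX2-5 shRNA cells alone, ANXA1 and TAGLN are high in both NKX2-5 shRNA and ZEB2 shRNA cells, and PEG3 is low in all 3 shRNA lines.

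Genes of heart muscle, which NKX2-5 regulates later, were near the limit of detection for the most part. Of 16 tested sarcomere genes 5 fell (MYL4, MYH6, MYL7, DES and TTN) and ACTA1 rose, with a median of -0.52, where 1.4% of all tested genes fell. TTN, the giant sarcomeric spring protein, was the fallen member with the deepest counts, at 22.05 and 25.2 CPM against 43.8 and 51.5 (log2 fold change -1.01, SE 0.13, adjusted p 0.00072). DES had 0.637 and 0.703 CPM against 1.32 and 1.80. MYL4 had 3 counts against 26, a ratio of 11 with an exact 95% counting interval from 3.37 to 56.8, and was not called without NKX2-5 shRNA replicate 2 or either WT library (adjusted p 0.109 to 0.162). MYH6 was not called without NKX2-5 shRNA replicate 1 or WT replicate 2 (adjusted p 0.184 and 0.636), nor was MYL7 without NKX2-5 shRNA replicate 1 or either WT library (adjusted p 0.155 to 0.225). ACTA1 had 9.94 and 21.8 CPM against 7.22 and 5.97, and was not called without NKX2-5 shRNA replicate 2 (log2 fold change 0.60) or WT replicate 2 (log2 fold change 1.14). Without WT replicate 2 only 1 sarcomere gene was called. Of 88 tested candidate cardiogenic genes common to human and mouse 2 rose (MEIS1 and MBNL2) and 7 fell. This is 10.2% called, beside 4.03% of all tested genes. MEIS1 was not called without WT replicate 1 (log2 fold change 1.79). MBNL2, a splicing regulator, had 11.3 and 16.6 CPM against 3.79 and 4.29 (log2 fold change 1.79, SE 0.21). These candidates had been chosen on expression and chromatin data of other ESCs, before any knockdown.

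Several genes that fell are not of a lineage list. PURA, a single-stranded DNA and RNA binding protein at chr5:139487362-139505204, had 2.30 and 2.11 CPM in NKX2-5 shRNA cells, 18.6 and 20.2 CPM in WT cells, 16.9 and 19.7 CPM in ZEB2 shRNA cells and 5.72 and 6.44 CPM in ZNF503 shRNA cells. Its log2 fold change against WT was -3.14 (SE 0.17, adjusted p 1.59e-06), and the NKX2-5 shRNA libraries were the lowest of the 8. The next gene, IGIP at chr5:139505522-139508977, starts 317 bases further on the same strand and also fell, with 0.588 and 0.377 CPM against 2.37 and 2.69 (log2 fold change -2.42, SE 0.36). CPT1B, the muscle-type carnitine palmitoyltransferase of fatty acid import into mitochondria, had 2.84 and 2.40 CPM against 13.6 and 14.5, and 13.3 to 17.96 CPM in the other shRNA lines (log2 fold change against WT -2.43, SE 0.18, adjusted p 1.88e-05). PEG3, an imprinted zinc finger gene, had 0.0490 and 0.515 CPM against 4.67 and 4.88 in WT cells (log2 fold change -3.95, SE 0.59, adjusted p 0.00166). PEG3 was also low in the ZEB2 shRNA cells (0.171 and 0.515 CPM) and ZNF503 shRNA cells (0.546 and 0.449 CPM), with differences of -0.10 (adjusted p 0.926) and -0.67 (adjusted p 0.484). Among 25 tested imprinted genes PEG3 and DLK1 fell and NLRP2 rose, with a median of 0.01, and DLK1 was not called without NKX2-5 shRNA replicate 2, WT replicate 1 or WT replicate 2 (adjusted p 0.154 to 0.296). CST2 and CST4, salivary cystatins that inhibit cysteine proteases, had no counts in NKX2-5 shRNA cells and were at least 7.19-fold and at least 14-fold lower than WT against a floor of 3 counts over the group. Low cystatin values were not particular to NKX2-5 shRNA cells. Against ZNF503 shRNA cells the median of 6 tested cystatins was 0.06 and none was called. CST1, which also fell against WT (2.79 and 2.90 CPM), had 0.0437 and 0.0396 CPM in ZNF503 shRNA cells and 11.5 and 14.7 CPM in ZEB2 shRNA cells. The cystatin genes are near-identical copies, so their reads may be divided in error. ANKRD1, a target of YAP, had 0.196 and 0.652 CPM against 2.99 and 3.25, and CCDC177 had 0.343 and 0.206 CPM against 2.81 and 2.77. ANKRD1 was also low in ZNF503 shRNA cells (0.0873 and 0.0264 CPM). Among 19 tested YAP targets it was the 1 that fell, and CCN2 rose (12.3 and 19.1 CPM against 6.16 and 6.66). That is 10.5% called, beside 4.03% of all tested genes. Of the 19, 16 had a fold change above 0, and the median was 0.20.

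In the signalling lists 14.3% of WNT, 17.4% of NODAL and activin, 11.1% of BMP and 3.45% of FGF members were called. For p53 targets the share was 14.3%, beside 4.03% of all tested genes. Among 28 tested WNT ligands and targets the ligands WNT3A and WNT10B rose and the inhibitors APCDD1 and SFRP1 fell, with a median of -0.31. At 5% FDR 7 members were lower and 3 higher, where 7.64% of all tested genes were lower and 8.23% higher. WNT3A had 32 counts in NKX2-5 shRNA cells and none in WT cells, at least 8.41-fold higher, and WNT10B had 60 against 2, a ratio of 23.6 with an exact 95% counting interval from 6.27 to 200. APCDD1 had 1.47 and 1.25 CPM against 6.45 and 5.44, and 5.93 to 7.73 CPM in the other shRNA lines (log2 fold change against WT -2.13, SE 0.20, adjusted p 0.000101). SFRP1 had 43.4 and 58.7 CPM against 137 and 126 (log2 fold change -1.36). Among 23 tested genes of the NODAL and activin pathway INHBA, INHBE and TGFB3 rose and CER1 fell, with a median of -0.03. INHBE had a log2 fold change of 1.09, which was 0.51 without NKX2-5 shRNA replicate 2 and 1.01 (adjusted p 0.126) without WT replicate 2, and TGFB3 was not called without that library, WT replicate 1 or WT replicate 2 (adjusted p 0.115 to 0.283). Of 28 tested p53 targets GDF15, FAS, PLK2 and CDKN1A rose and none fell, with a median of 0.19 and 23 of 28 fold changes above 0. GDF15, a stress-induced cytokine, had 2.03 and 6.47 CPM against 0.877 and 1.14, and its log2 fold change of 2.09 was 1.01 (adjusted p 0.141) without NKX2-5 shRNA replicate 2 and 1.91 (adjusted p 0.119) without WT replicate 1. Between 1 and 2 members were called when NKX2-5 shRNA replicate 2 or either WT library was left out, and 6 without NKX2-5 shRNA replicate 1. Of 32 tested cell cycle genes CDKN1A, a cyclin-dependent kinase inhibitor, was called (8.45 and 22.8 CPM against 7.14 and 8.26), and its log2 fold change of 1.03 was 0.14 without NKX2-5 shRNA replicate 2, and without either WT library its adjusted p was 0.211 or 0.299. Of 79 tested cytosolic ribosomal protein genes none was called, 55 were higher at 5% FDR (where 8.23% of all tested genes were), and the median was 0.39.

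Over all genes, NKX2-5 shRNA cells differed from the other shRNA lines at least as often as from WT. In the same fit 7.59% of the 16891 genes were called against ZEB2 shRNA cells, with 754 higher (4.46%) and 528 lower (3.13%), and 7% against ZNF503 shRNA cells, with 648 higher (3.84%) and 535 lower (3.17%). These comparisons share the 2 NKX2-5 shRNA libraries with that against WT. Of 28 hypoxia and glycolysis genes 7 were called higher against ZEB2 shRNA cells and 3 against ZNF503 shRNA cells.

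Day 2 and day 6 libraries allowed the day 0 calls to be looked for in separate samples of the same lines. At 10% FDR and any fold, 239 of the 596 called genes that were tested at day 2 differed the same way (40.1%) and 47 the opposite way, where 35.5% of all genes differed in either direction. At day 2 the same-way share was 38.3% for genes that had risen, where 17.6% of all 16520 tested genes were higher, and 43.3% for genes that had fallen, where 17.9% were lower. At day 6 it was 209 of 544 (38.4%), with 150 the opposite way, where 56.5% of all genes differed in either direction. Of the genes that had risen 35% were higher at day 6 and 31.5% were lower, where 28.1% of all 16442 tested genes were higher, and of those that had fallen 44% were lower, where 28.4% were.

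Single genes differed in how long the day 0 difference was met. RBM46 had 89.1 and 77.6 CPM in NKX2-5 shRNA cells and 4.83 and 5.69 CPM in WT cells at day 2, and 50.4 and 50.9 CPM against 0.557 and 1.51 CPM at day 6. DDX43 was at 8.54 and 7.97 CPM against 0.616 and 1.19 at day 2 and at 2.93 and 3.09 CPM against 0.214 and 0.0471 at day 6. Both germline genes were thus higher in all 6 NKX2-5 shRNA libraries than in all 6 WT libraries. MAEL was higher at day 2 (5.29 and 3.61 CPM against 0.137 and 0.132) but not at day 6 (log2 fold change -1.06, adjusted p 0.353). ZNF662 had log2 fold changes of 3.25 at day 2 and 3.36 at day 6. PEG3 was lower on each day, with 0.219 and 0 CPM against 10.95 and 11.5 at day 2 and 0.108 and 0.117 CPM against 20.8 and 28.4 at day 6. CPT1B was at 7.01 and 5.02 CPM against 31.3 and 37.5 at day 2, and at day 6 its log2 fold change was -1.57. PURA approached WT, with 10.9 and 9.78 CPM against 27.5 and 29.99 at day 2 and 14.95 and 15.96 CPM against 26.3 and 26.3 at day 6. PGK1 was higher at day 2 (999 and 872 CPM against 395 and 394) but had a log2 fold change of -0.25 at day 6, while BNIP3 was higher on both days (338 and 330.0 CPM against 219 and 204.5, then 107 and 99.0 CPM against 39.9 and 52.2). The rise of metallothioneins was mostly not met again. At day 2, 1 of 7 tested was higher and none lower at 10% FDR (median 0.26), where 17.6% of all tested genes were higher. At day 6 none of 4 was higher and 2 were lower (median -0.78), where 28.4% of all were lower. MT1G had 0.748 and 0.352 CPM against 0.958 and 0.993 in WT cells at day 2. Of 16 mesendoderm genes tested at day 2, 9 were lower and 2 higher in NKX2-5 shRNA cells at 10% FDR, with a median of -0.36. TBX6, called higher at day 0, had a log2 fold change of -1.29. EOMES had 522 and 588 CPM in NKX2-5 shRNA cells and 599 and 655 CPM in WT cells (log2 fold change -0.18), and CER1, 1 of the 2 higher genes, was at 3765 and 3640.3 CPM against 2015 and 2073 (log2 fold change 0.86). At day 6 EOMES was lower again, at 3.76 and 5.80 CPM against 10.8 and 10.9.

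**Figure D4:**
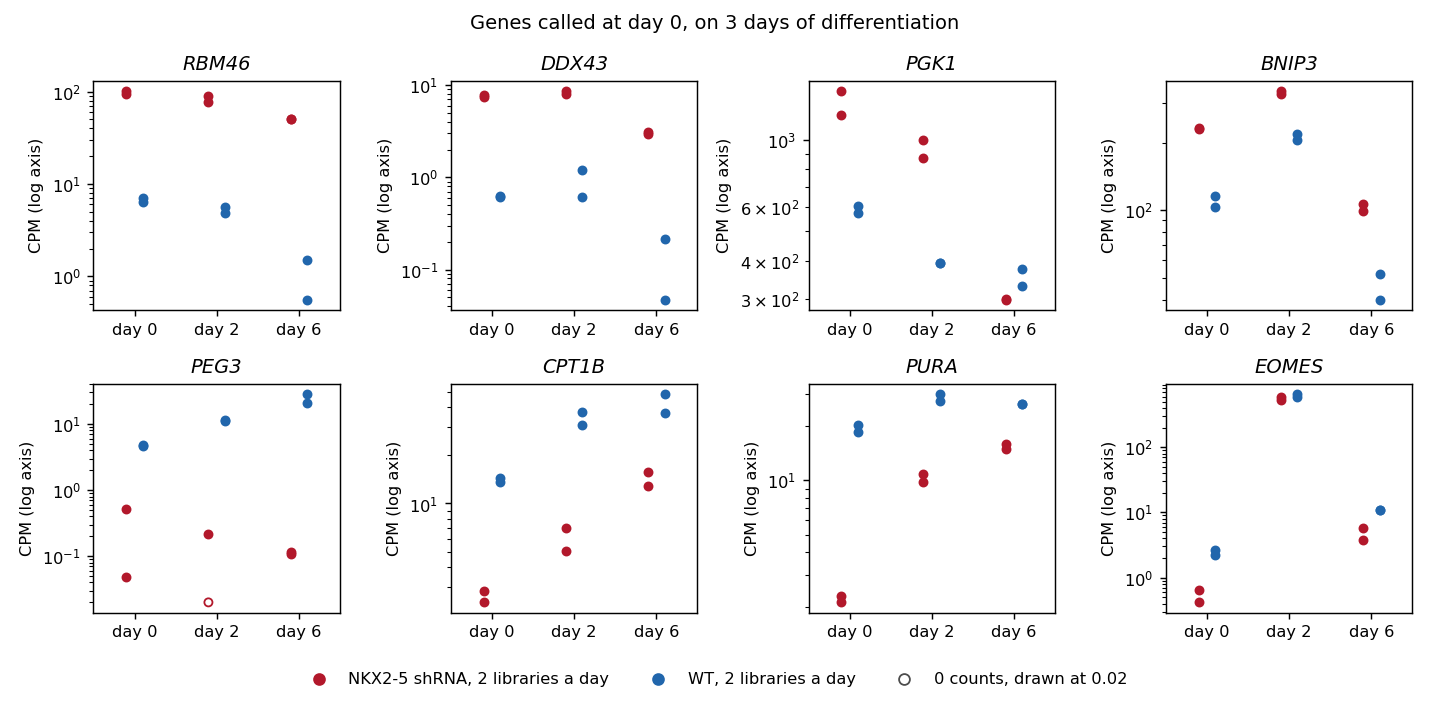
CPM on a log axis at day 0, day 2 and day 6 for 8 genes called at day 0, with 1 point per library (2 NKX2-5 shRNA libraries in red and 2 WT libraries in blue a day) and an open circle for 0 counts. RBM46 and DDX43 stay above WT and PEG3 and CPT1B below WT on all 3 days. PGK1 is close to WT at day 6, and EOMES is close to WT at day 2 but below it again at day 6.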

How the data were processed

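RNA was isolated with Trizol, made into TruSeq Stranded Total RNA libraries and sequenced in pairs. According to their methods, the authors mapped reads to hg19 (GRCh37) with TopHat2 2.0.14 (Bowtie2 2.2.1.0, SAMtools 0.1.19.0 per the labels) and counted them per RefSeq gene with RSeQC, and the deposited values are raw read counts. Whether counting used the strand is not stated. Of 41627 accessions 40285 (96.8%) were matched to a symbol and the row with the largest total was taken per symbol, giving 23189 genes. A further 1077 rows had no accession and no day 0 counts, and 10 columns of day 10 were not read. Counts of the 8 day 0 libraries were fitted together with edgeR 4.0.16 in R 4.3.3 (TMM, filterByExpr, glmQLFit and glmQLFTest, prior count 0.125, Benjamini-Hochberg adjustment over 16891 genes). Genes were called at 2-fold and 10% FDR, the study's day 0 threshold. Days 2 and 6 were fitted separately. The fit was tested on simulated data. Alternatives were limma 3.58.1 (voom), DESeq2 1.42.0, other normalizations, filters and thresholds, a replicate block and leaving out single libraries. Named genes were the 3 targeted genes, the 12 largest rises and 12 largest falls with at least 1 CPM in the higher group, the 6 called genes with the highest CPM, up to 4 called members of each gene list and further list members given with their values. The comparison, its genes and the lists were chosen with earlier results of these data known. Counting intervals and floors cover counting error only. Over genes, the difference between replicates correlated at -0.275 between NKX2-5 and ZEB2 shRNA cells and at -0.155 between NKX2-5 shRNA and WT cells. Other pairs of groups had -0.056 to 0.034. Replicate numbers were thus not used as pairs in the main fit, and what these values come from was not tested. A gene under these rules is not reported here.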

Additional observations from a re-analysis of the deposited data

Results flagged for a closer look

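In 8 of the 24 genes with the largest changes the difference between NKX2-5 shRNA and WT cells itself differed between day 2 and day 0, by an interaction term over both days with Benjamini-Hochberg adjustment (edgeR). The 24 genes were picked by their day 0 difference, which is part of this term. That choice alone favours a smaller difference at day 2, and all 8 terms ran against the day 0 direction, so the term is no independent test. On the log2 scale the day 2 difference minus the day 0 difference was -11.15 for ANXA1 (adjusted p 0.0343), -3.62 for EDN1 (adjusted p 0.0133), 7.04 for CST1 (adjusted p 0.000102), 4.92 for LHFPL3 (adjusted p 0.0393), 2.46 for TBX22 (adjusted p 0.0225), 1.95 for EOMES (adjusted p 0.000473), 1.67 for PURA (adjusted p 0.000133) and 1.18 for APCDD1 (adjusted p 0.00635). ANXA1 was at 0 and 0 CPM in NKX2-5 shRNA cells and 0 and 0.265 CPM in WT cells at day 2, so its fitted value, like those of CST1 and LHFPL3, depends on the prior count and is no bound. APCDD1 was at 8.41 and 8.28 CPM in NKX2-5 shRNA cells and 16.2 and 16.02 CPM in WT cells at day 2.

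At day 0, 5 of these 24 genes differed between NKX2-5 shRNA and ZEB2 shRNA cells and lay on opposite sides of WT, each past 10% FDR in a contrast of the lines within the day 0 fit. Such contrasts reuse the NKX2-5 shRNA libraries by which the 24 genes were picked, so they are not independent of that choice. The difference on the log2 scale was 5.22 for DDX43, 6.43 for ZNF560, 8.86 for IAH1, -3.22 for EOMES and -9.19 for CST1. IAH1 had 3.89 and 3.81 CPM in NKX2-5 shRNA cells, 0.413 and 0.127 CPM in WT cells and 0 and 0.0143 CPM in ZEB2 shRNA cells, and CST1 had 2 counts in NKX2-5 shRNA cells, so the fitted values of both depend on the prior count.

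The same held for 6 of the 24 genes between NKX2-5 shRNA and ZNF503 shRNA cells, with differences of 4.62 for DDX43, 5.07 for RBM46, 6.43 for MAEL, 8.77 for ANXA1, 8.82 for ZNF560 and 10.80 for IAH1, which had no counts in ZNF503 shRNA cells.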

How the results depend on the processing

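Of the 24 genes with the largest changes 23 were called under every alternative that tested them, and TBX22 was not called without WT replicate 2. Of 2643 values of named genes under an alternative 2349 kept their direction and their side of the threshold, 289 kept only the direction and 5 changed sign, all of genes that were not called: ZEB2 was at -0.021 without TMM factors, -0.028 by DESeq2 and -1.19 to 5.85 without 1 library, and ZNF503 was at -1.03 to 0.0080 without 1 library. Against 681 calls, 564 were made by DESeq2, 651 by limma, 510 with at least 1 CPM in 2 libraries, 579 from the 4 libraries alone, 615 with length and GC offsets, 602 among transcripts of at least 1000 bases and 681 with a crossed replicate block, these last 3 settings chosen after seeing the data. With the replicate block 647 were called, of which 638 were shared. At 5% FDR with no fold threshold 2681 genes passed (1390 higher, 1291 lower), and at 4-fold 200 (139 and 61). Leaving out 1 library gave 435 to 826 calls, 283 to 516 higher and 152 to 310 lower. Against ZEB2 shRNA cells 5277 genes passed at 5% FDR, 288 at 4-fold, 843 with at least 1 CPM in 2 libraries and 1053 to 1438 without 1 library, and against ZNF503 shRNA cells 4370, 306 and, without 1 library, 919 to 1276. Of the genes on lists 141 were called, 392 passed at 5% FDR, 46 at 4-fold and 101 to 170 without 1 library. Under the study's thresholds for later days 51 calls were met again at day 2 and 48 at day 6. With any fold change allowed, as in the Results, 239 were met again at day 2 and 209 at day 6. Under that rule fewer were met again on either day when any 1 library was left out. Median log2 fold changes of chromosome arms spanned 0.193, and 0.201 to 0.276 without 1 library, the highest without NKX2-5 shRNA replicate 2. Depth limits what can be said of NKX2-5, ZEB2 and ZNF503 at day 0 and of the genes with 3 counts or fewer in a group. The causes of these dependences were not tested.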

Other observations

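In several smaller lists genes went both ways. Of 35 tested GABA and glutamate receptor subunits 4 rose and 4 fell (22.9% called, beside 4.03% of all genes), and GRIK2, a kainate receptor subunit, had 2.40 and 1.30 CPM in NKX2-5 shRNA cells and 4.36 and 5.67 CPM in WT cells. Of 7 tested hepatic and yolk sac genes 2 rose and 2 fell (57.1%): AFP had 2.57 and 4.31 CPM against 0.671 and 0.152, while APOA1 had 0.196 and 0.120 CPM against 1.21 and 0.584. Of 9 tested blood genes 1 rose and 1 fell (22.2%): HBE1, embryonic beta-like globin, had 1.35 and 1.70 CPM against 0.464 and 0.432, and TAL1, a blood regulator, had 0.294 and 0.137 CPM against 0.851 and 0.813. In the Notch list HES1 and HES4 rose and HEY1 and HEYL fell among 18 tested (22.2%), and the log2 fold change of HES1, 1.00, was 0.74 without NKX2-5 shRNA replicate 2 and 0.97 without WT replicate 2. HEY1 and HEYL were not called without NKX2-5 shRNA replicate 2 (adjusted p 0.128 and 0.205) or WT replicate 1 (adjusted p 0.133 and 0.562), nor HEYL without NKX2-5 shRNA replicate 1 (adjusted p 0.12). None of 69 replication-dependent histone genes, 53 clustered protocadherins, 12 genes of the RNA interference machinery or 14 claudins was called. Their medians were, in this order, 0.30, -0.24, -0.18 and 0.20. At 5% FDR 10 histone genes were higher and none lower, and 5 RNA interference genes were lower and none higher. Of the protocadherins 1 was higher and 1 lower, and no claudin passed. Of all tested genes 8.23% were higher and 7.64% lower. Of 176 LINC RNAs 10 rose and 4 fell, 7.95% called beside 4.03% of all genes.

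By chromosome arm the share of called genes was highest on 4q, which holds RBM46, at 32 of 427 genes (7.49%), beside 4.03% over all arms and genes, and the median log2 fold change of that arm was 0.10.

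SNAR-A10 and SNAR-A11, copies of a small noncoding RNA, held identical counts in each library, so their reads cannot be told apart. They were among the called genes with the highest level, at 235 and 124 CPM in NKX2-5 shRNA cells, with a log2 fold change of 1.06 that was 0.53 (adjusted p 0.22) without NKX2-5 shRNA replicate 1, 0.98 without WT replicate 1 and 1.15 (adjusted p 0.124) without WT replicate 2.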
